A study of Mus musculus with 18 samples.

Results

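H19, Mest, Meg3, Rian, Cdkn1c, Grb10, Plagl1, Dlk1, Peg3 and Ndn are imprinted genes that have been grouped as a network controlling growth before and after birth. They were taken by gene symbol from a fixed list of 10 names. The rule used no measured value, but the list was chosen with earlier results of these data known. Shares of all genes beside the counts of members therefore describe this list and are not an independent test of it. All 10 were among the 38149 gene symbols of the expression table, and each exceeded 1 FPKM (fragments per kilobase, relative to all mapped fragments) in at least 2 of 3 replicates of all 6 groups.

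An imprinted gene is transcribed mainly from the allele inherited from a single parent, and the mark that sets this is laid down in the germ line. Several genes of this network are abundant in fetal tissues and decline after birth as growth slows. Paternally expressed members tend to promote growth and maternally expressed members tend to restrain it, although exceptions are known.

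RNA was sequenced from cells that magnetic beads against PDGFRA (CD140), a fibroblast receptor, had pulled from the lungs of C57BL/6J pups. Pups were kept in room air (RA) and harvested on postnatal day 4, 7 or 10 (PN4, PN7, PN10), or were kept in 90% O2 from birth. Hyperoxia groups were harvested at PN4 after 4 days of O2, at PN7 after 7 days of O2, and at PN10 after 7 days of O2 followed by 3 days of recovery in RA. Each of the 6 groups held 3 samples, 18 in all. At PN10 the age and the return to RA changed together, so their parts in a difference from PN7 cannot be told apart. Neither sex nor the number of animals behind a sample was given in the sources used here, so p-values measure the spread between these samples.

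Total read counts were not given, but the steps between low FPKM values gave relative depths from 0.779 to 1.34 of the typical sample. Between 11690 and 13249 genes exceeded 1 FPKM per sample. The label of the cells was checked against markers. Pdgfra itself was at 49.9, 17.7 and 17.9 FPKM in RA PN4, 52.0, 69.4 and 48.6 in RA PN7, and 110.7, 96.3 and 78.3 in RA PN10. Pdgfra was at 4.78, 8.36 and 6.35 FPKM in hyperoxia PN4, 5.41, 3.20 and 1.61 in hyperoxia PN7, and 27.7, 38.3 and 10.8 in hyperoxia PN10. Every hyperoxia value of Pdgfra was below every RA value of the same age. Transcripts of the airway and alveolar epithelium were also abundant: Scgb1a1 ranked between 2 and 6 and Sftpc between 2 and 5 among all genes, so the RNA did not come from fibroblasts alone. The entry Mir5105 alone held between 70.1% and 91.3% of the summed FPKM of a sample. Replicate 1 of RA PN4 stood apart from its group, with Pdgfra, Grb10 and Plagl1 well above the other 2 samples, and replicate 3 of RA PN10 had the lowest H19, Mest and endothelial marker levels of its group. Samples carry numbers in their titles, and no run of neighboring numbers held RA PN4 samples together with RA samples of a later age, so in RA this change of age and these runs cannot be told apart. In such bulk samples, fewer cells of a type and less RNA per cell cannot be told apart.

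**Figure D1:**
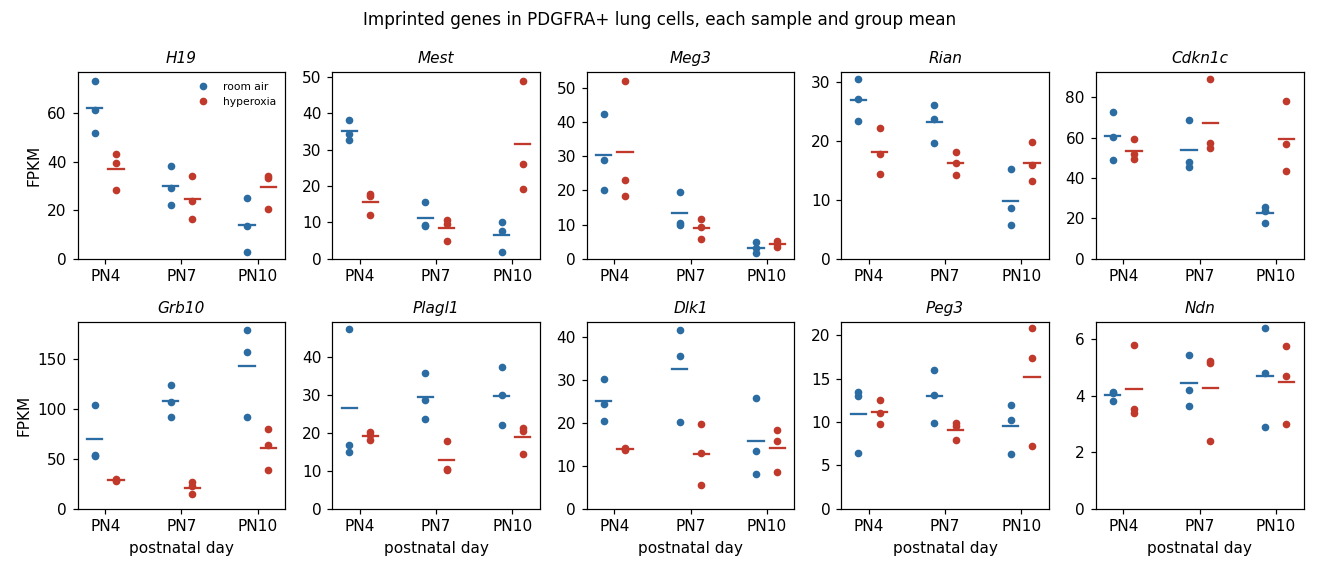
FPKM of each member in every sample by postnatal day, with RA in blue and hyperoxia in red; each point is a sample and each line the mean of 3. Mest and Cdkn1c at PN10 are higher in every hyperoxia sample than in every RA sample, and Grb10 is lower in every hyperoxia sample at all 3 ages.

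From PN4 to PN10 in RA the members divided into genes called lower, a gene called higher, Grb10, whose groups overlapped, and genes without a called change. A gene was called when limma gave a fold change above 2 on the scale log2(FPKM + 0.1) and an unadjusted p under 0.01. From PN4 to PN7, 1 of 10 members was called lower and 0 higher, against 0.677% and 3.88% of the 12846 genes tested. At an unadjusted p under 0.05, 2 were lower and 1, Grb10, was higher. The shares of all genes given here are by the call rule, and none is given for counts at a p under 0.05. Those counts are therefore not read as particular to the members. From PN7 to PN10, 3 of 10 were called lower and 0 higher, against 5.39% and 0.723% of 12721 genes by the same rule. A looser count, at an unadjusted p under 0.05 and without such a share, was 6 lower and 0 higher. Over the whole interval from PN4 to PN10, 5 of 10 were called lower and 1 higher, against 9.18% and 9.49% of 12889 genes. The median log2 fold change of the members over that interval was -1.11, beside 0.09 for all genes tested.

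Groups that did not overlap were also counted. Between PN4 and PN7 in RA, 3 of 10 members (H19, Meg3 and Mest) had every PN7 value below every PN4 value, against 4.69% of genes, and 0 were separated upward, against 21%. Between PN7 and PN10, 3 of 10 (Meg3, Rian and Cdkn1c) were separated downward, against 16.0%, and 0 upward, against 8.02%. Between PN4 and PN10, 5 of 10 (H19, Meg3, Rian, Mest and Cdkn1c) were separated downward, against 19.9%, and 0 upward, against 25.8%. An exact two-sided permutation test of 3 against 3 samples cannot go below 0.1, the value each of these reached.

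The scaling of the samples moved the background of these comparisons. Under median-ratio scaling the median of all genes shifted by -0.20 from PN4 to PN7 and by -0.13 from PN4 to PN10, and under quantile normalization it shifted by -0.21 from PN4 to PN7 and by 0.14 from PN7 to PN10. The calls over all genes from PN4 to PN7 were 498 higher and 87 lower as deposited, 244 and 216 with median-ratio scaling, and 248 and 235 with quantile normalization. From PN7 to PN10 they were 92 higher and 686 lower, and 171 and 390 with quantile normalization. From PN4 to PN10 they were 1223 higher and 1183 lower, and 980 and 1440 with median-ratio scaling. Under median-ratio scaling and quantile normalization the value of Ndn from PN4 to PN7, 0.12 as deposited, became -0.085 and -0.15, none of them called, and Meg3 was also called lower from PN4 to PN7 at -1.41 and -1.34. Relative to the all-gene median of 0.21 from PN4 to PN7, the declines of H19, Mest and Meg3 were larger and the value of Grb10 smaller.

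H19 is a maternally expressed noncoding RNA that restrains fetal growth and is the host of miR-675. It was at 73.5, 61.3 and 52.0 FPKM in RA PN4, 38.2, 22.3 and 29.3 in RA PN7, and 25.2, 13.5 and 2.89 in RA PN10. Every PN4 value was above every later value, while PN7 and PN10 overlapped and replicate 3 of PN10 was far below the rest. By limma H19 fell by 2.61 ± 0.53 (SE) on the log2 scale from PN4 to PN10, lower in 3 of 3 samples, with an adjusted p of 0.00185. The steps of -1.08 from PN4 to PN7 and -1.54 from PN7 to PN10 were not called, although the earlier step was called without replicate 3 of RA PN10. Without replicate 1 of RA PN10 the later step of H19 was -2.20 and was called, and without the low replicate 3 it was -0.66 and the change from PN4 to PN10 was -1.74, still called.

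Mest is a paternally expressed gene for a protein of the hydrolase fold, and it was the member called lower from PN4 to PN7. Its FPKM was 32.7, 34.4 and 38.2 in RA PN4, 15.6, 8.89 and 9.38 in RA PN7, and 10.001, 7.54 and 1.94 in RA PN10. The PN4 samples were tightly grouped and all above the later ones, and PN7 and PN10 overlapped. The step from PN4 to PN7 was -1.67 ± 0.48 with an adjusted p of 0.0508 in limma, so Mest passed the call rule but not an adjusted p of 0.05. That call was lost without replicate 2 of RA PN7 (-1.52), replicate 3 of RA PN7 (-1.56) or replicate 3 of RA PN4 (-1.61). Between PN4 and PN10 Mest fell by 2.70 ± 0.48, in 3 of 3 samples, with a limma adjusted p of 8.4e-04, and without replicate 3 of RA PN10 the value was -1.998 and still called. Without replicate 1 of RA PN10, Mest was also called lower from PN7 to PN10 (-1.48).

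Meg3 and Rian are maternally expressed noncoding RNAs of the Dlk1-Dio3 domain on chromosome 12. Meg3 was at 28.8, 42.3 and 20.2 FPKM in RA PN4, 19.5, 9.89 and 10.5 in RA PN7, and 1.82, 4.85 and 3.05 in RA PN10. Its groups followed each other downward with no overlap at either step. From PN7 to PN10 Meg3 fell by 2.04 ± 0.42 (limma adjusted p 0.0147), and from PN4 to PN10 by 3.23 ± 0.42 (limma adjusted p 1.0e-04), lower in 3 of 3 samples each time. The earlier step of Meg3, -1.20, had an unadjusted limma p of 0.0116 and was not called, but it was called in 6 of the 18 fits that each left out 1 sample. Rian was at 23.3, 30.4 and 27.0 FPKM in RA PN4, 23.8, 26.1 and 19.5 in RA PN7, and 8.64, 5.70 and 15.2 in RA PN10. Its first 2 groups overlapped, and all PN10 values were below both. Rian fell by 1.33 ± 0.28 from PN7 to PN10, in 3 of 3 samples, with a limma adjusted p of 0.0153. Without replicate 2 of RA PN10 that step of Rian was -0.995 and no longer called.

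Cdkn1c encodes p57, an inhibitor of cyclin-dependent kinases, and is expressed from the maternal allele. It was at 49.0, 72.8 and 60.2 FPKM in RA PN4, 69.0, 47.8 and 45.4 in RA PN7, and 23.8, 25.9 and 17.8 in RA PN10. The PN4 and PN7 values mixed, and all PN10 values were lower. Cdkn1c fell by 1.25 ± 0.25 from PN7 to PN10 (limma adjusted p 0.0124) and by 1.43 ± 0.25 from PN4 to PN10 (limma adjusted p 6.7e-04), lower in 3 of 3 samples in both comparisons. With these title runs as a block, the step of Cdkn1c from PN7 to PN10 was -0.9875 (limma p 0.0120) and was not called. Only replicate 1 of RA PN7 and replicate 2 of RA PN10 shared a run across these ages in RA, so that blocked step rests on this run.

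Grb10 encodes an adaptor that dampens signaling by the insulin and IGF1 receptors, and outside the brain it is mainly maternally expressed. Its FPKM was 104, 53.8 and 53.3 in RA PN4, 92.5, 125 and 107 in RA PN7, and 179, 158 and 92.4 in RA PN10. Replicate 1 of RA PN4 and replicate 3 of RA PN10 carried the overlap between ages. From PN4 to PN10 the log2 fold change of Grb10 was 1.04 ± 0.32 with a limma adjusted p of 0.0199, and 2 of 3 PN10 samples were above all PN4 samples. This call was lost with values of 0.88 without replicate 2 or without replicate 3 of RA PN4, 0.85 without replicate 1 of RA PN10 and 0.94 without replicate 2 of RA PN10. Median-ratio scaling gave 0.91, which was also not called. Without replicate 1 of RA PN4, Grb10 was called higher from PN4 to PN7 at 1.002. With the title-number block, which for this step rests on the same shared run, Grb10 was called higher from PN7 to PN10 at 1.042.

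The other 4 members had no called change in RA. Plagl1, a paternally expressed zinc finger transcription factor that regulates other imprinted genes, was at 47.3, 16.9 and 15.0 FPKM in RA PN4, 35.8, 28.7 and 23.8 in RA PN7, and 30.1, 37.3 and 22.1 in RA PN10. All 3 ages of Plagl1 overlapped, with replicate 1 of PN4 the highest value. Dlk1, a paternally expressed transmembrane protein related to Notch ligands, was at 24.3, 20.3 and 30.1 FPKM in RA PN4, 20.1, 41.5 and 35.5 in RA PN7, and 8.16, 13.5 and 25.7 in RA PN10. Its step from PN7 to PN10, -1.12 with an unadjusted limma p of 0.0232, was not called and the groups overlapped, although 3 of the fits without 1 sample called it, among them that without replicate 3 of RA PN10 (-1.55). Without replicate 1 of RA PN4, the change of Plagl1 from PN4 to PN10 was 0.87, with a fold under 2. Peg3, a paternally expressed zinc finger protein, ranged from 6.30 to 16.0 FPKM in RA, and Ndn, which encodes the paternally expressed growth suppressor necdin, ranged from 2.89 to 6.41 FPKM. Across all 6 groups the highest mean was 1.66 times the lowest for Peg3 and 1.17 times for Ndn, beside 9.63 times for Meg3, 6.77 times for Grb10, 5.40 times for Mest and 4.50 times for H19.

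Levels per transcript length put the members in a different order at each age. In RA PN4 the order of mean FPKM was Grb10, H19, Cdkn1c, Mest, Meg3, Rian, Plagl1, Dlk1, Peg3 and Ndn, and neighbors overlapped except Cdkn1c with Mest, Dlk1 with Peg3, and Peg3 with Ndn. In RA PN10 the order was Grb10, Plagl1, Cdkn1c, Dlk1, H19, Rian, Peg3, Mest, Ndn and Meg3, and only Grb10 was separated from its neighbor. Hyperoxia PN10 was led by Grb10 and Cdkn1c with means of 61.0 and 59.6 FPKM, whose samples overlapped, followed by Mest and H19 with means of 31.4 and 29.5. Ranked by group mean among genes above the filter, Meg3 spanned percentile ranks from 42.04 to 92.9 across the 6 groups.

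Hyperoxia was compared with RA of the same age. The fold changes at different ages share no samples with each other, although each shares its RA group with the course in RA. The spread was estimated from all 18 samples together, so p-values and calls at an age also depend on samples of other ages. At PN4, 1 of 10 members was called lower and 0 higher, against 2.46% and 3.13% of 12910 genes tested by the call rule. The count at an unadjusted p under 0.05, for which no share of all genes is given, was 2 lower and 0 higher. At PN7, 3 of 10 were called lower and 0 higher, against 6.86% and 5.16% of 13318 genes by the call rule. The count at an unadjusted p under 0.05, again without a share of all genes, was 3 lower and 0 higher. At PN10, 2 of 10 were called higher and 1 lower, against 10.5% and 3.57% of 13026 genes by the call rule. The count at an unadjusted p under 0.05, again without a share of all genes, was 4 higher and 1 lower. Without such a share, the counts at a p under 0.05 are not read as particular to the members. The median log2 fold change of the members was -0.42, -0.50 and 0.55 at the 3 ages, beside 0.17, 0.02 and 0.03 for all genes.

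Separation without overlap was found in 5 of 10 members at PN4, all lower in hyperoxia (H19, Dlk1, Rian, Mest and Grb10), against 9.80% of genes, and 0 were separated upward, against 22.0%. At PN7, 4 of 10 were separated downward (Dlk1, Rian, Plagl1 and Grb10), against 18.7%, and 0 upward, against 17%. At PN10, 2 of 10 were separated upward (Mest and Cdkn1c), against 19.8%, and 2 of 10 downward (Plagl1 and Grb10), against 15.6%. At PN4 the median of all genes shifted by -0.12 under median-ratio scaling and by -0.14 under quantile normalization. The all-gene calls at PN4 were 404 higher and 318 lower as deposited, 280 and 453 with median-ratio scaling, and 272 and 490 with quantile normalization. At PN10 they were 1373 higher and 465 lower, and 927 and 608 with quantile normalization.

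Grb10 was the member called lower in hyperoxia at all 3 ages. At PN4 its FPKM was 29.3, 27.4 and 29.3 in hyperoxia beside 104, 53.8 and 53.3 in RA. At PN7 it was 22.3, 26.5 and 14.5 beside 92.5, 125 and 107, and at PN10 it was 64.2, 80.4 and 38.5 beside 179, 158 and 92.4. No hyperoxia sample reached the lowest RA sample of its age. The log2 fold change of Grb10 was -1.22 ± 0.32 at PN4 (limma adjusted p 0.0324), -2.38 ± 0.32 at PN7 (limma adjusted p 1.8e-04) and -1.24 ± 0.32 at PN10 (limma adjusted p 0.0156), lower in 3 of 3 samples each time. Leaving out replicate 1 of RA PN4 gave -0.90 at PN4 and leaving out replicate 3 of hyperoxia PN10 gave -0.94 at PN10, and neither was called. The difference between the effects at PN7 and PN4 was -1.16 with an unadjusted limma p of 0.0206, and that between PN10 and PN7 was 1.15 with a p of 0.0222, neither of them called. Both were called with the title-number block (-1.01 and 1.15) and with the replicate block.

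Plagl1 and Dlk1 were called lower at PN7. Plagl1 was at 10.2, 10.5 and 17.9 FPKM in hyperoxia PN7 beside 35.8, 28.7 and 23.8 in RA, with no overlap and a log2 fold change of -1.22 ± 0.35 (limma adjusted p 0.0263, lower in 3 of 3 samples). In hyperoxia Plagl1 was at 17.99, 19.5 and 20.2 FPKM at PN4, inside the wide RA range, and at 20.4, 21.4 and 14.5 at PN10, below all RA samples but not called (-0.65). Dlk1 was at 12.97, 19.7 and 5.50 FPKM in hyperoxia PN7 beside 20.1, 41.5 and 35.5 in RA, with a log2 fold change of -1.46 ± 0.45 (limma adjusted p 0.0356, lower in 3 of 3 samples). The highest hyperoxia sample of Dlk1 lay just under the lowest RA sample. The call of Dlk1 was lost without replicate 2 of RA PN7 (-1.25), replicate 3 of RA PN7 (-1.36) or replicate 3 of hyperoxia PN7 (-0.95), and with only the groups compared (-1.46, p 0.0153). That of Plagl1 was lost without replicate 1 of RA PN7 (-1.07) or replicates 1 or 2 of hyperoxia PN7 (-1.08 and -1.10). At PN4 Dlk1 was at 13.7, 13.9 and 14.1 FPKM in hyperoxia, a narrow group below all RA samples (-0.82, not called), and at PN10 it was at 15.8, 8.49 and 18.3, within the RA range.

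The values of Mest were lower in hyperoxia than in RA at PN4 and higher at PN10. Its FPKM was 17.4, 12.1 and 17.7 in hyperoxia PN4 beside 32.7, 34.4 and 38.2 in RA, lower in 3 of 3 samples, but the change of -1.17 had an adjusted p of 0.147 in limma and was not called. It was called with only the groups compared (-1.17), with the title-number block (-1.10) and without replicate 3 of RA PN10. At PN7 Mest was at 10.6, 9.65 and 4.83 FPKM in hyperoxia, overlapping RA. At PN10 Mest was at 48.9, 26.2 and 19.2 FPKM in hyperoxia beside 10.001, 7.54 and 1.94 in RA. All 3 hyperoxia samples were above all RA samples at PN10, and replicate 1 was above every RA sample of any age. The PN10 log2 fold change of Mest was 2.43 ± 0.48 with a limma adjusted p of 0.00418, and it was 1.73 and still called without replicate 3 of RA PN10. The effect of hyperoxia on Mest at PN10 exceeded that at PN4 by 3.602 on the log2 scale (limma adjusted p 0.0445).

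Cdkn1c followed RA through PN7 and departed at PN10. In hyperoxia it was at 51.9, 59.6 and 49.5 FPKM at PN4 and 88.9, 57.5 and 54.7 at PN7, overlapping RA at both ages. At PN10 Cdkn1c was at 43.5, 78.1 and 57.1 FPKM beside 23.8, 25.9 and 17.8 in RA. All 3 were above the RA samples of that age, and replicate 1 was below every earlier value of either condition. This gave a log2 fold change of 1.38 ± 0.25 with a limma adjusted p of 0.00254, higher in 3 of 3 samples.

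With all 18 samples, the values as deposited and no block, H19, Meg3 and Rian were not called in hyperoxia at any age. H19 was at 39.5, 28.2 and 43.4 FPKM in hyperoxia PN4, 23.7, 34.2 and 16.5 in hyperoxia PN7, and 33.5, 34.3 and 20.7 in hyperoxia PN10. The PN4 samples of H19 were below all RA samples of that age, and at PN10 2 of 3 were above all RA samples. At PN10 its log2 fold change was 1.52 with a limma adjusted p of 0.0599 and was not called, although it was 2.18 and called without replicate 1 of RA PN10, and 0.64 without replicate 3. With the title-number block H19 was called at 1.52 (limma adjusted p 0.0125), and with the replicate block too (limma adjusted p 0.0368). Rian was at 17.9, 14.4 and 22.2 FPKM in hyperoxia PN4, 18.04, 16.3 and 14.1 in PN7, and 13.1, 16.0 and 19.8 in PN10. The 3 hyperoxia groups of Rian overlapped one another, below RA at PN4 and PN7, and at PN10 its change of 0.81 had an unadjusted limma p of 0.0096 but a fold under 2. Without replicate 3 of RA PN10 that change of Rian was 1.18 and was called. Meg3 was at 23.0, 18.5 and 52.1 FPKM in hyperoxia PN4, 9.19, 5.85 and 11.5 in PN7, and 3.58, 5.14 and 4.46 in PN10. Meg3 overlapped RA at every age and its hyperoxia samples at PN7 and PN10 were below those at PN4. Peg3 reached 17.3, 20.8 and 7.29 FPKM in hyperoxia PN10, and its changes of 0.09, -0.49 and 0.59 at the 3 ages were not called. Without replicate 3 of hyperoxia PN10 the PN10 change of Peg3 was 1.04 and was called. The log2 fold changes of Ndn in hyperoxia were 0.03, -0.12 and -0.05.

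The difference between the effects of hyperoxia at 2 ages was tested directly. The tests of PN10 against PN7 and of PN10 against PN4 share the PN10 samples, so a member called in both is not 2 separate results. Between PN7 and PN4, 0 of 10 members were called in either direction by limma, against 0.124% higher and 1.19% lower of 13679 genes, with 0 higher and 1 lower at an unadjusted p under 0.05. The shares in this paragraph are by the call rule, and none is given for counts at a p under 0.05, which are not read as particular to the members. Between PN10 and PN7, 3 of 10 were called higher (Mest, Rian and Cdkn1c) and 0 lower, against 1.62% and 0.210% of 13781 genes by the call rule. The count at an unadjusted p under 0.05, without a share of all genes, was 6 higher and 0 lower. Between PN10 and PN4, 4 of 10 were called higher (H19, Mest, Rian and Cdkn1c) and 0 lower, against 2.30% and 0.998% of 13726 genes, with 4 higher and 0 lower at an unadjusted p under 0.05. Over all genes these calls were 17 higher and 163 lower between PN7 and PN4 (30 and 105 with median-ratio scaling, 40 and 115 with quantile normalization). They were 223 and 29 between PN10 and PN7 (196 and 79 with quantile normalization), and between PN10 and PN4 69.8% of the called genes were higher (81.2% with median-ratio scaling). Median-ratio scaling shifted the median of all genes by 0.14 between PN7 and PN4 and by 0.105 between PN10 and PN4, and quantile normalization shifted it by 0.13 between PN7 and PN4 and by -0.12 between PN10 and PN7. Of 30 proliferation genes, 10 were called higher between PN10 and PN7 and 14 between PN10 and PN4. Of 6 mesothelial markers, 1 and 5 were called higher in that order, and 0 genes of either list were called lower. In these 3 tests an adjusted p under 0.05 was reached by 1 member, Mest between PN10 and PN4. By adjusted p, 13 of all genes were called higher and 12 lower between PN10 and PN4. Between PN7 and PN4, and between PN10 and PN7, 0 of all genes were called by it. Without replicate 1 of RA PN4, Grb10 (-1.48) and Plagl1 (-1.49) were called lower between PN7 and PN4. Between PN10 and PN7, calls were also made for H19 (2.48) without replicate 1 of RA PN10, Dlk1 (1.82) without replicate 3 of RA PN10, and Peg3 (1.53) and Grb10 (1.445) without replicate 3 of hyperoxia PN10. The title-number block gave calls for H19 (1.81), Dlk1 (1.39) and Grb10 (1.15) there. Of the 18 fits that each left out 1 sample, 10 lost the call of H19 between PN10 and PN4, among them each fit without a PN4 sample. Between PN10 and PN7, 6 fits lost the call of Cdkn1c, with values from 0.86 to 1.09, among them that without replicate 3 of RA PN10 (0.92), and 4 lost the call of Rian, with values from 0.99 to 1.23.

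**Figure D2:**
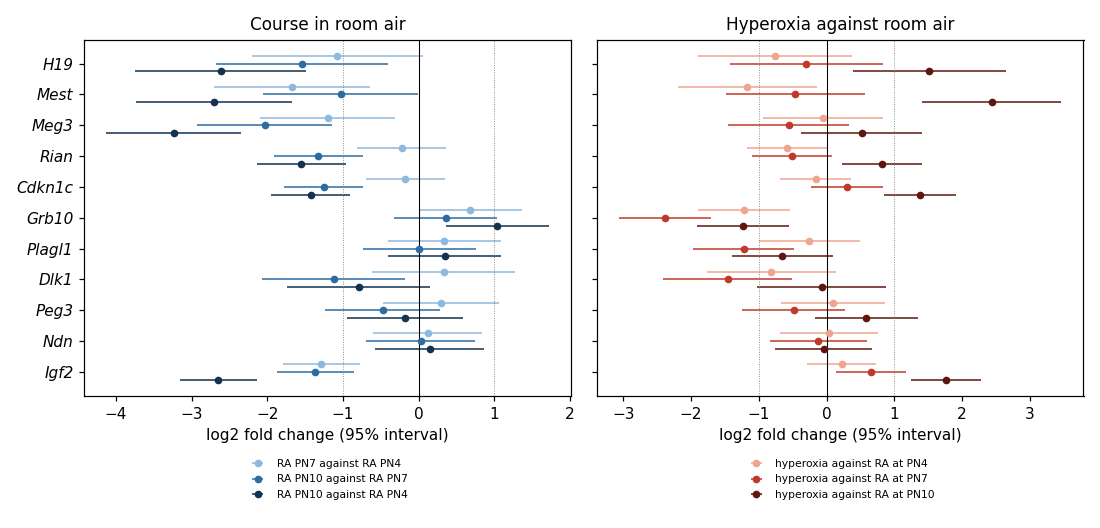
Log2 fold changes of the 10 members and Igf2 with 95% intervals from limma, for the course in RA (left) and for hyperoxia against RA of the same age (right); dotted lines mark a fold change of 2. Mest and Cdkn1c lie right of the dotted line at PN10 in hyperoxia and Grb10 lies left of it at all 3 ages.

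Igf2, the paternally expressed fetal growth factor next to H19, was not a member. It was at 119, 94.7 and 80.4 FPKM in RA PN4, 41.6, 32.5 and 46.0 in RA PN7, and 20.4, 16.6 and 10.6 in RA PN10. Igf2 was at 132.3, 97.2 and 111.1 FPKM in hyperoxia PN4, 60.1, 68.7 and 58.7 in hyperoxia PN7, and 49.2, 69.8 and 41.5 in hyperoxia PN10. The RA groups of Igf2 stepped downward without overlap, and from PN7 on every hyperoxia value was above every RA value of its age. Igf2 fell by 2.65 ± 0.24 from PN4 to PN10 in RA (limma adjusted p 1.5e-05), and in hyperoxia its log2 fold change was 0.22 at PN4, 0.65 at PN7, neither called, and 1.76 ± 0.24 at PN10 (limma adjusted p 5.1e-04, higher in 3 of 3 samples).

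Of 42 other imprinted genes listed, 28 passed the filter. From PN4 to PN10 in RA, 1 of 26 tested was called higher (Ddc) and 4 lower, led by Igf2 and Phlda2, with a median of 0.03 beside 0.09 for all genes. In RA 0 were called higher and 2 lower from PN4 to PN7 (Slc22a18 and Igf2), and 0 higher and 2 lower from PN7 to PN10 (Mirg and Igf2). In hyperoxia the calls were 0 higher and 2 lower at PN4 (Slc38a4 and Ddc), 1 higher (Slc22a18) and 4 lower, led by Peg10 and Slc38a4, at PN7, and 3 higher, led by Dcn and Igf2, and 2 lower (Ddc and Peg10) at PN10. Between effects, 1 was called lower between PN7 and PN4 (Peg10), 3 higher between PN10 and PN7, led by Mirg and Slc38a4, and 1 higher between PN10 and PN4 (Igf2). Ddc, the neighbor of Grb10, was at 3.29, 2.44 and 4.29 FPKM in RA PN4 and 9.34, 6.91 and 6.07 in RA PN10. At PN7 Ddc was at 3.03, 1.85 and 1.74 FPKM in hyperoxia beside 5.82, 5.86 and 5.93 in RA, with a log2 fold change of -1.41 (limma adjusted p 0.00232, lower in 3 of 3 samples). All hyperoxia values of Ddc at PN7 were below all RA values, as for Grb10, at a lower level. Peg10, a paternally expressed gene derived from a retrotransposon, was at 1.96, 2.22 and 1.65 FPKM in hyperoxia PN7 beside 10.6, 13.6 and 9.11 in RA, a log2 fold change of -2.44.

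By position the members lay on 5 chromosomes of the mouse genome (GRCm38, GENCODE M21). H19 lies at chr7:142575529-142578143 on the minus strand, 72.6 kb from Igf2 at chr7:142650766-142666816, and Cdkn1c at chr7:143458339-143461050 on the minus strand, 880 kb from H19. Dlk1 lies at chr12:109452823-109463336, Meg3 at chr12:109541001-109571726 and Rian at chr12:109603940-109661716, all on the plus strand, with gaps of 77.7 kb and 32.2 kb. From PN7 to PN10 in RA the log2 fold changes were -1.12 for Dlk1, -2.04 for Meg3 and -1.33 for Rian, the last 2 called, and in hyperoxia at PN7 they were -1.46, -0.56 and -0.51, the first called. Mirg, the next noncoding RNA of that domain, 68.1 kb beyond Rian, fell by 2.12 from PN7 to PN10 in RA (limma adjusted p 0.00449, lower in 3 of 3 samples). Grb10 lies at chr11:11930508-12038683 on the minus strand, 32.4 kb from Ddc, and Mest at chr6:30723547-30748465 on the plus strand, where its 3' end overlaps Copg2 on the other strand. Plagl1 lies at chr10:13060504-13131694 on the plus strand, Peg3 at chr7:6703892-6730431 on the minus strand and Ndn at chr7:62346569-62350262 on the plus strand. The library kit is not known to keep the strand, so reads of Mest and Copg2 in the shared stretch cannot be told apart.

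**Figure D3:**
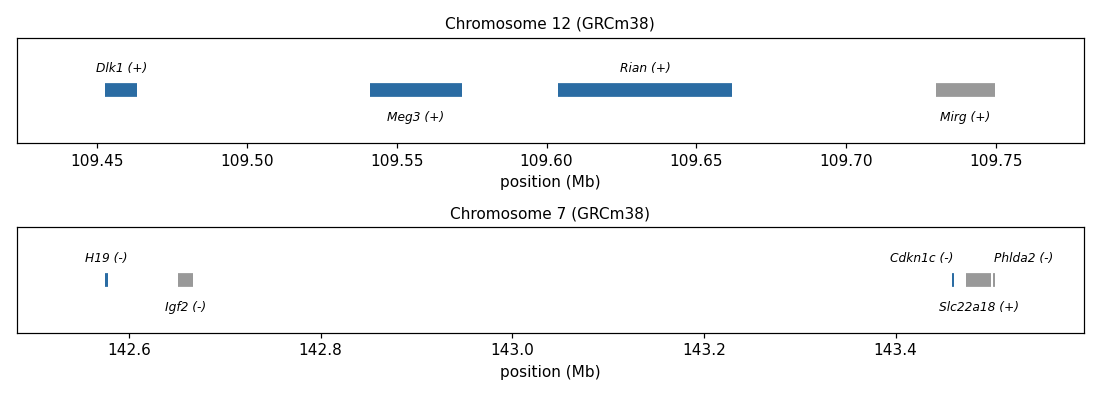
Gene spans on chromosome 12 and chromosome 7 (GRCm38, position in Mb), with members in blue, other imprinted genes in gray and the strand in brackets. Dlk1, Meg3 and Rian lie in a row on the plus strand, and H19 and Igf2 lie apart from Cdkn1c, Slc22a18 and Phlda2.

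H19, Mest, Meg3 and Rian are hosts of miRNAs whose mature forms the RefSeq table holds. The sequences (5' to 3', seed at bases 2 to 8 in capitals) are shown for 1 miRNA each of H19, Mest and Meg3, 3 members called lower from PN4 to PN10 in RA. They were chosen after the values were seen, and those of Rian, which was also called lower, and miR-1906 of Meg3 are not shown. They lie at chr7:142577112-142577133 and chr7:142577078-142577099 on the minus strand for the arms of miR-675 inside H19, at chr6:30741314-30741336 and chr6:30741354-30741375 on the plus strand for miR-335 inside Mest, and at chr12:109563710-109563731 and chr12:109563744-109563765 on the plus strand for miR-770 inside Meg3 (RefSeq, GRCm38.p6). The 6 seeds differ from one another. The mature forms were not measured by this library type. The table entry for Mir675 was listed at 0 in 16 of 18 samples and the entries for Mir335 and Mir770 in 18 of 18.
miR-675-5p: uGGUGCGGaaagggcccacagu
miR-675-3p: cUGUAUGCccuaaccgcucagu
miR-335-5p: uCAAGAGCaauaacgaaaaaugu
miR-335-3p: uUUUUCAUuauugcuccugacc
miR-770-5p: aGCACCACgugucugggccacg
miR-770-3p: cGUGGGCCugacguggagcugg

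Promoter windows were in the RefSeq table for 8 of 10 members, all but H19 and Cdkn1c. The 250 bases before a transcription start are shown for Mest and Grb10, called in opposite directions in hyperoxia at PN10. Those of the neighbors Dlk1 and Meg3 are shown too, and each CpG is in capitals. Imprinting marks are methylated CpG, but whether any of these windows carries such a mark was not established here. The windows are at chr6:30737800-30738049 on the plus strand for Mest and chr11:12037421-12037670 on the minus strand for Grb10, both in introns of other transcripts of the same gene, and at chr12:109452573-109452822 for Dlk1 and chr12:109540746-109540995 for Meg3 on the plus strand, both outside annotated genes (RefSeq, GRCm38.p6). Counting also the 50 bases after the start, Grb10 held 45 CpG at 80% GC, as many as or more than 98.4% of the 32851 windows of all genes, where the median was 7 CpG and 52.7% GC. Mest held 17 CpG, Meg3 13 and Dlk1 9 in the same length. Other starts of the same genes held 9 CpG at 52.3% GC for a second window of Grb10, 8 for one of Mest and 1 for one of Meg3, and a further window of Mest, shifted by 3 bases, also held 17. The motif GGGGCCCC, the consensus bound by PLAGL1 and identical on both strands, was in 1.08% of all windows and among the members in the window of Peg3 only. No methylation was measured here.
Mest: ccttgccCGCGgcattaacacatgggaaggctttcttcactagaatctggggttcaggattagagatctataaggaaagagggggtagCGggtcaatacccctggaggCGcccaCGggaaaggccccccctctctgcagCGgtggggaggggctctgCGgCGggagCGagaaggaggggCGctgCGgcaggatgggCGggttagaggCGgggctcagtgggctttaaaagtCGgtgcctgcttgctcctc
Grb10: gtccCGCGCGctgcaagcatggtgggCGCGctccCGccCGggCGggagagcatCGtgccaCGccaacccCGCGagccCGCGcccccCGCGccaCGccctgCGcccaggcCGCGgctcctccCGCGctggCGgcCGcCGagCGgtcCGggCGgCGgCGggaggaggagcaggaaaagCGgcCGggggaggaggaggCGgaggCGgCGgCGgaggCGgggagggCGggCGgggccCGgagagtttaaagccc
Dlk1: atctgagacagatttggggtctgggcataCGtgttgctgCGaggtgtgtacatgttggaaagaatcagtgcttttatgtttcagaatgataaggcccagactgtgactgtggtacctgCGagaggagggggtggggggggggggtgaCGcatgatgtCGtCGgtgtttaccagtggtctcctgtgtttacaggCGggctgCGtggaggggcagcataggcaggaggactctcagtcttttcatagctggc
Meg3: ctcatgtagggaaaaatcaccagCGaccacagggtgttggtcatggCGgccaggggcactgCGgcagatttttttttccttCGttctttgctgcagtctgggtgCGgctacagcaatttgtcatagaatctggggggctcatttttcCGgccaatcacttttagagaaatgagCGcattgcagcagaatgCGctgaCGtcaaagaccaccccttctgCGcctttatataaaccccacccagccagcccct

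Pathways tied to the members were read from fixed lists. Of the IGF axis, on which Grb10 and Igf2 act, 18 of 20 genes passed the filter. In RA between PN4 and PN10, 5 of 17 tested were called higher, led by Pappa2 and Stc1, and 3 lower, led by Igf2 and Igf2bp3. In hyperoxia 2 were called higher (Igfbp2 and Igfbp5) and 1 lower (Igf1) at PN4, 1 higher (Igfbp5) and 4 lower, led by Pappa2 and Igf1, at PN7, and 5 higher, led by Igfbp6 and Igf2bp1, and 1 lower (Stc1) at PN10. Igf1 was at 25.6, 35.0 and 25.4 FPKM in hyperoxia PN4 beside 145, 69.6 and 63.3 in RA, and at 35.9, 33.0 and 15.5 in hyperoxia PN7 beside 115, 152 and 130. Its RA values were high in the same samples as those of Grb10, and all hyperoxia values were lower at both ages. Igf1 changed by -1.60 at PN4 (limma adjusted p 0.0260) and by -2.31 at PN7 (limma adjusted p 9.9e-04), lower in 3 of 3 samples each time. The receptors Igf1r and Igf2r were not called in any of these comparisons, with log2 fold changes in hyperoxia of 0.38, -0.21 and 0.07 for Igf1r and of 0.71, 0.46 and 0.35 for Igf2r at the 3 ages.

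Among CDK inhibitors and G1 cyclins, the family of Cdkn1c, which was itself not counted in this list, 13 of 14 genes passed the filter, and in hyperoxia 1 was called higher (Cdkn1a) and 1 lower (Cdkn2c) at each of the 3 ages. Cdkn1a, the p53 target p21, was at 378, 371 and 345 FPKM in hyperoxia PN4 beside 57.3, 105 and 85.9 in RA, and at 80.5, 119 and 108 in hyperoxia PN10 beside 21.1, 27.5 and 28.9 in RA. It was far above RA at PN4, and the smaller PN10 values were still separated from RA. Its log2 fold changes were 2.18, 2.24 and 1.98 at PN4, PN7 and PN10, whereas those of Cdkn1c were -0.16, 0.30 and 1.38 and those of Cdkn1b -0.21, -0.45 and -0.51. In RA, Cdkn1a and Ccne2 were called lower from PN7 to PN10 and from PN4 to PN10, and Cdkn2c was called higher from PN4 to PN7 and, with Cdk6, from PN4 to PN10. Of 30 proliferation genes, 29 of them tested at PN4, 0 were called higher and 11 lower at PN4, 0 and 12 at PN7, and 0 in either direction at PN10, each time led by Cenpa and Ccna2 where any was called. In RA 2 were called higher (Mki67 and Cenpe) and 1 lower (Tyms) from PN4 to PN10, and 0 in either direction in the shorter steps. Mki67 was at 51.1, 4.87 and 6.14 FPKM in RA PN7 and at 4.09, 3.53 and 14.5 in hyperoxia PN7. In both conditions the highest PN7 sample was the one whose title number falls in a run with PN10 samples, so the values of Mki67 differed between title runs at the same age, which was not tested. Mki67 in hyperoxia had log2 fold changes of -0.65, -0.945 and 0.22, not called at any age.

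In the Notch pathway, to which Dlk1 is related, 17 of 21 genes passed the filter. Over the RA course from PN4 to PN10, 2 of 16 tested were called higher (Maml2 and Maml1) and 4 lower, led by Lfng and Nrarp, with 0 called from PN4 to PN7 and 3 lower, led by Jag2 and Lfng, from PN7 to PN10. In hyperoxia 1 was called higher at PN4 (Notch1), 1 lower at PN7 (Notch4), and 5 higher and 0 lower at PN10, led by Jag1 and Lfng. Fetal growth regulators that are not imprinted passed the filter in 11 of 14 cases. From PN4 to PN10 in RA 2 of 10 tested were called higher (Tet1 and Sox4) and 3 lower, led by Igf2bp3 and Hmga1, and in hyperoxia the calls were 0 higher and 1 lower (Ezh2) at PN4, 0 and 2 (Sox11 and Sox4) at PN7, and 3, led by Igf2bp1 and Hmga1, and 1 (Sox4) at PN10.

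Mesothelial markers were lower in RA at PN10 than before and higher in hyperoxia than in RA. The list has 6 genes, of which Krt19 was the most abundant with 56.1% of the sum, and none was below the filter in all groups. Their summed FPKM was 76.4, 149 and 121 in RA PN4, 78.1, 59.5 and 69.3 in RA PN7, and 27.5, 35.5 and 32.2 in RA PN10. In hyperoxia PN4 the sum was 186, 161 and 179, in hyperoxia PN7 217, 215 and 159, and in hyperoxia PN10 136, 200.1 and 144. In RA the PN4 and PN7 sums overlapped and all PN10 sums were lower, and at each age all hyperoxia sums were above all RA sums. In RA 4 of the 6 were tested, of which 0 were called in either direction from PN4 to PN7, and 0 were called higher and 3 lower from PN4 to PN10, led by Upk3b and Krt19, and in hyperoxia 1 was called higher at PN4 (Lrrn4), 5 at PN7, led by Lrrn4 and Upk3b, and 6 at PN10, led by Msln and Muc16. With the mesothelial mean as a covariate, chosen after seeing the data, the PN10 changes were 0.39 for Mest and -0.86 for Cdkn1c, neither of them called, and -2.86 (p 0.0523) for Grb10, also not called. Of all genes 0.0691% were called higher and 0.745% lower at PN10 in that fit. This covariate was itself separated between hyperoxia and RA at every age, so the fit cannot tell the groups and the marker apart, and the part of mesothelial cells in the results was not tested further.

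Most pan-fibroblast markers were called higher over the RA course, and some were called lower in hyperoxia at each age. At PN10 their summed FPKM overlapped between hyperoxia and RA. All 14 passed the filter, and Sparc was the most abundant with 47.4% of the sum. Their summed FPKM was 1427, 809 and 792 in RA PN4, 1476, 1965 and 2139 in RA PN7, and 3308, 3241 and 2150 in RA PN10. In hyperoxia PN4 the sum was 764, 732 and 647, in hyperoxia PN7 988, 1036 and 523, and in hyperoxia PN10 2081, 2439 and 1287. Replicate 1 of RA PN4 was the highest and replicate 3 of RA PN10 the lowest of its group for Grb10 as for this sum. The part of fibroblast content in the values of Grb10 was not tested apart from the centring given next. From PN4 to PN10 in RA 11 were called higher and 0 lower, led by Col6a3 and Col5a1, and in hyperoxia 0 were called higher and 2 (Pdgfra and Fbln1), 9 and 6 lower at PN4, PN7 and PN10, led by Pdgfra each time. Relative to the mean of these markers, the hyperoxia changes of Grb10 were -0.59, -0.66 and -0.40, none called.

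Centring on the fibroblast markers moved the whole background. The median of all genes shifted by -0.92 from PN4 to PN7 in RA, -0.68 from PN7 to PN10 and -1.60 from PN4 to PN10, and by 0.63, 1.72 and 0.83 in hyperoxia at PN4, PN7 and PN10. With it the all-gene calls were 28 higher and 1393 lower from PN4 to PN7 in RA, 10 and 1662 from PN7 to PN10, and 52 and 8379 (0.403% and 65.0%) from PN4 to PN10. In hyperoxia they were 1526 and 69 at PN4, 10554 and 107 at PN7 (79.2% and 0.803% of genes, and 687 and 913 as deposited), and 3229 and 57 at PN10. For the differences between effects, which shifted by 1.09, -0.89 and 0.20, the share of higher among called genes was 95.9% for PN7 against PN4, 12.03% for PN10 against PN7 and 87.8% for PN10 against PN4. Under it 35 values changed sign over the 10 members, among them those of Plagl1, Grb10 and Ndn in all 3 RA comparisons and of all members but Cdkn1c and Grb10 in hyperoxia at PN7. A change per fibroblast transcript and a change in the share of fibroblasts were not tested apart.

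Other cell types also differed between the groups. Immune markers, 15 of 17 above the filter with Lyz2 the most abundant at 84.0% of the sum, had 7 called higher at PN7, led by Marco and Cd68, 7 at PN10, led by Marco and Itgax, and 1 at PN4 (Cd14), with 0 lower. Their summed FPKM at PN10 was 1987, 3016 and 5317 in hyperoxia beside 654, 1204 and 3743 in RA, which overlapped. Epithelial markers, 14 of 14 with Scgb1a1 at 47.7% of the sum, had 1 called higher at PN4 (Cdh1), 2 at PN7 (Cdh1 and Krt8) and 9 at PN10, led by Foxj1 and Krt8, and their sums at PN10 were 42259, 64619 and 77942 beside 12428, 27972 and 51087. Endothelial markers, 12 of 12 with Cdh5 at 18.8% of the sum, had 0 called at PN4, 1 higher at PN7 (Car4) and 7 at PN10, led by Emcn and Car4, with sums at PN10 of 204, 111.9 and 83.4 beside 62.4, 66.6 and 16.1. Replicate 3 of RA PN10, the lowest for H19 and Mest, was also the lowest for endothelial markers. Mural and smooth muscle markers, 9 of 9 with Acta2 at 73.9%, had 3, 5 and 2 called lower at the 3 ages and 0 higher, led by Acta2 and Tagln at PN4, Tagln and Des at PN7 and Pdgfrb and Tagln at PN10. Their sums at PN7 were 122, 136.7 and 54.8 in hyperoxia beside 425, 629 and 534 in RA, and Acta2 changed by -1.94, -2.51 and -0.998 at the 3 ages, the last not called. The part of these cell types in the members' results was not tested beyond the fit with immune, epithelial and endothelial marker means as covariates, in which Mest at PN10 was 1.23, Cdkn1c 0.62 and Grb10 -0.99, none called. Of all genes 0.161% were called higher and 0.384% lower at PN10 in that fit.

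In RA the same lists gave these calls from PN4 to PN10: 0 higher and 6 lower of 14 immune markers tested, led by S100a8 and S100a9, 0 and 4 of the epithelial markers, led by Foxj1 and Krt8, 0 and 1 of the endothelial markers (Car4), and 3 and 0 of the mural markers, led by Myh11 and Pdgfrb. In the fit with immune, epithelial and endothelial covariates, the RA calls of Meg3 (-1.45) and Cdkn1c (-0.80) from PN7 to PN10 and of Cdkn1c (-0.92) and Grb10 (0.75) from PN4 to PN10 were lost. Calls were made in that fit for H19 (-1.07) and Meg3 (-1.27) from PN4 to PN7 and for H19 (-1.62) from PN7 to PN10. Of all genes that fit called 4.41% higher and 0.802% lower from PN4 to PN7. It called 0.448% higher and 0.629% lower from PN7 to PN10, and 7.09% and 2.11% from PN4 to PN10. The part of these cell types in the course in RA was not tested further.

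The genes whose pattern was most like the mean of the members' standardized values were named over 18 samples and over the 9 RA samples. Over 18 samples they were Ednrb (Pearson r 0.887), Slc38a5 (0.852), Tuba1b (0.847), Lrr1 (0.842), Tcf21 (0.833), S1pr3 (0.826), Npr3 (0.824), Adh1 (0.821), Dnph1 (0.811) and Hist1h2ap (0.811). Over the 9 RA samples they were Pola2 (0.974), Ablim3 (0.955), Pcna (0.946), Prim1 (0.946), Hist1h2ap (0.945), Rad51c (0.943), Mif (0.941), B4galt5 (0.940), Dscc1 (0.940) and Eif4a-ps4. These correlations describe samples that share groups and have no p. With that mean H19 had an r of 0.826 over 18 samples and 0.899 over the 9 RA samples, and Grb10 had 0.281 and -0.183. Each member is itself part of that mean, so some of its r is built in. Among pairs of members, H19 and Mest had an r of 0.848 over 18 samples and 0.959 over the 9 RA samples, Grb10 and Plagl1 had 0.754 and 0.708, and Meg3 and Cdkn1c had 0.531 and 0.913. Dlk1 had an r of 0.209 and 0.473 with Meg3, its neighbor, and of 0.542 and 0.710 with Rian.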

How the data were processed

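The authors' deposited FPKM values were used. By the submitters' processing notes and the study's methods, reads from poly(A)-selected RNA were aligned to mm10 with Bowtie2 (Bowtie in the methods) and FPKM were made with Cufflinks, versions not given. Of 38295 entries, 146 with a repeated symbol were dropped for the one with the highest mean. limma 3.58.1 (R 4.3.3) fitted log2(FPKM + 0.1) with a mean per group and trended eBayes, on 12 residual plus 3.859 prior degrees of freedom, over 14044 genes above 1 FPKM in 2 of 3 replicates of a group. limma replaced the study's count test because the values are FPKM. A call needs an unadjusted p under 0.01 and a fold above 2, and Benjamini-Hochberg adjustment ran over all genes of a comparison. Tables and plots were made with Python 3.11.15, pandas 2.3.3, numpy 2.4.6, scipy 1.17.1 and matplotlib 3.10.9.

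The members and lists were chosen with earlier results of these data known. The lists reported here were other imprinted genes, the IGF axis, the Notch pathway, CDK inhibitors and G1 cyclins, proliferation, fetal growth regulators that are not imprinted, and markers of fibroblast, immune, epithelial, endothelial, mural and mesothelial cells; 1 further list is not reported. Named genes are the members, up to 2 called genes per list, direction and comparison with the largest absolute log2 fold change, Igf2, Igf1, Igf1r, Igf2r, Cdkn1a, Cdkn1b, Mki67, Pdgfra and Acta2, and the 10 genes most correlated with the members over 18 samples and over 9 RA samples. Scgb1a1, Sftpc, Mir5105, the miRNA entries and marker genes named for being most abundant fall outside that rule; they were chosen after seeing the values.

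Alternatives changed the pseudocount (1, 0.01), the filter (none, or above 5 FPKM) and the scaling (median-ratio, quantile normalization), or used only the groups compared, a block by replicate number or by neighboring title numbers, adjusted p, immune, epithelial and endothelial covariates, centring on pan-fibroblast markers, and each sample left out. A mesothelial covariate was chosen after seeing the data. Gene positions came from GENCODE M21. Read counts and the study's other assays were not analysed here.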

Additional observations from a re-analysis of the deposited data

Results flagged for a closer look

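The effect of hyperoxia differed between ages for 4 members by the call rule in the limma test of the difference itself, on the scale of log2(FPKM + 0.1). Of all genes, 1.62% were called higher between PN10 and PN7 and 2.30% between PN10 and PN4. Between PN10 and PN7 the difference was 1.324 for Rian, 2.893 for Mest and 1.076 for Cdkn1c. Between PN10 and PN4 it was 2.272 for H19, 1.396 for Rian, 3.602 for Mest and 1.54 for Cdkn1c. Of the 18 fits that each left out 1 sample, 10 lost the call of H19 between PN10 and PN4. Between PN10 and PN7, 6 lost that of Cdkn1c and 4 that of Rian. Without replicate 3 of RA PN10 the hyperoxia effect on H19 at PN10 was smaller, as given above. Adjusted over all genes, Mest between PN10 and PN4 was under 0.05 and the other 6 differences were not. By adjusted p, 13 of all genes were called higher and 12 lower between PN10 and PN4, and 0 between PN10 and PN7. Both comparisons share the PN10 samples, so a member called in both is not a separate result in each. Recovery in RA and age cannot be told apart in these differences.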

How the results depend on the processing

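Under the alternatives, 2492 of 2763 values of the members' log2 fold changes kept their direction and their side of the call rule, 90 kept the direction and lost the call, 56 kept it and gained a call, and 125 changed sign. Most values as deposited were not called, and those that stayed uncalled in the same direction are counted in the 2492. In 116 of the 125 neither value was called. Where no construction is named, the cause was not tested.

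From PN4 to PN7 in RA, 1 member called lower became 2 with a pseudocount of 1, median-ratio scaling or quantile normalization, 3 with only the groups compared, with immune, epithelial and endothelial covariates or relative to pan-fibroblast markers, and 0 with adjusted p or the mesothelial covariate. Lower calls over all genes from PN4 to PN7 were 0.677% as deposited. In the order of those alternatives they were 0.467%, 1.68%, 1.83%, 0.599%, 0.802%, 10.8%, 0.288% and 0.202%. From PN7 to PN10, 0 higher became 1 with the title-number block (2.70% of all genes). Over the same step 3 lower became 7 relative to pan-fibroblast markers (13.1% of all genes) and 0 with the mesothelial covariate (1.03%). From PN4 to PN10, 1 higher became 0 with median-ratio scaling, only the groups compared, either set of covariates or pan-fibroblast centring, and 5 lower became 9 with that centring, where 65.0% of all genes were called lower, and 0 with the mesothelial covariate, where 0.815% were. The value of Grb10 behind the 1 higher was 1.04 with only the groups compared, 1.83 with the mesothelial covariate, 0.91 with median-ratio scaling and 0.75 with immune, epithelial and endothelial covariates. Higher calls over all genes from PN4 to PN10 were 8.72%, 7.13%, 7.60% and 7.09% in that order. They were 9.49% as deposited and 0.403% with the centring.

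In hyperoxia at PN4, 1 lower became 2 with only the groups compared or the title-number block and 0 with immune, epithelial and endothelial covariates or pan-fibroblast centring. Lower calls over all genes at PN4 were 2.46% as deposited. In the order of those alternatives they were 2.29%, 3.53%, 2.08% and 0.534%. At PN7, 3 lower became 1 with either set of covariates and 0 with the centring, which made 0 higher into 4, beside 79.2% of all genes. Lower calls over all genes at PN7 were 6.86% as deposited and 0.803% with the centring. They were 5.01% with immune, epithelial and endothelial covariates and 2.80% with the mesothelial covariate. Dlk1 was -1.50 with immune, epithelial and endothelial covariates, -0.58 with the mesothelial covariate and -1.46, also no longer called, with only the groups compared, and Plagl1 was -0.998 and -1.61 with the 2 sets of covariates. At PN10, 2 higher became 5 with the centring and 0 with either set of covariates, and 1 lower became 0 with all 3. Higher calls over all genes there were 24.8% with the centring, 0.161% with immune, epithelial and endothelial covariates and 0.0691% with the mesothelial covariate. Lower calls were 0.438%, 0.384% and 0.745% in that order. The value of Grb10 was -0.40, -0.99 and -2.86 in that order. Between PN7 and PN4, 0 lower became 1 with the replicate block or the title-number block, and 0 higher became 1 with the centring. Of all genes, 1.69% and 1.57% were called lower with these blocks, and 1.70% higher with the centring. Between PN10 and PN7, 3 higher became 6 with the title-number block, 1 with the centring, and 0 with adjusted p or the mesothelial covariate. Higher calls over all genes between PN10 and PN7 were 1.62% as deposited and 3.64% with that block. They were 0.138% with the centring, 0 with adjusted p and 0.203% with the mesothelial covariate. Between PN10 and PN4, 4 higher became 1 with adjusted p, 2 with immune, epithelial and endothelial covariates, and 0 with the mesothelial covariate, which was chosen after seeing the data. Higher calls over all genes between PN10 and PN4 were 2.30% as deposited, and 0.0947%, 0.219% and 0.0874% in the order of those alternatives. With only the groups compared, Cdkn1c between PN10 and PN7 (1.08) and H19 between PN10 and PN4 (2.27) lost their calls, and H19 lost it with no filter too.

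Relative to pan-fibroblast markers, which themselves changed, 35 values changed sign. In RA they were Dlk1 -0.585, Peg3 -0.62, Plagl1 -0.58, Grb10 -0.235 and Ndn -0.80 from PN4 to PN7, Plagl1 -0.68, Grb10 -0.33 and Ndn -0.66 from PN7 to PN10, and Plagl1 -1.25, Grb10 -0.56 and Ndn -1.45 from PN4 to PN10. In hyperoxia PN4 they were Meg3 0.58, Rian 0.047, Plagl1 0.38 and Cdkn1c 0.47, in hyperoxia PN7 H19 1.42, Dlk1 0.26, Meg3 1.16, Rian 1.21, Peg3 1.24, Plagl1 0.50, Mest 1.26 and Ndn 1.60, and in hyperoxia PN10 Dlk1 0.76, Plagl1 0.18 and Ndn 0.79. Between effects they were Dlk1 0.45, Meg3 0.58, Peg3 0.51, Plagl1 0.13 and Ndn 0.94 for PN7 against PN4, Plagl1 -0.32 and Ndn -0.82 for PN10 against PN7, and Grb10 0.19 and Ndn 0.13 for PN10 against PN4.

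With the mesothelial covariate 17 changed sign. In RA they were Cdkn1c 0.25 from PN4 to PN7, Peg3 0.11 from PN7 to PN10 and Peg3 0.79 from PN4 to PN10. In hyperoxia they were Peg3 -0.68 and Ndn -0.26 at PN4, Cdkn1c -1.12 at PN7, and H19 -1.98, Dlk1 1.32, Meg3 -1.94, Peg3 -1.42 and Cdkn1c -0.86 at PN10. Between effects they were H19 -0.42, Rian -0.11 and Cdkn1c -0.098 for PN7 against PN4, Ndn -0.20 for PN10 against PN7, and Meg3 -0.94 and Peg3 -0.74 for PN10 against PN4.

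With immune, epithelial and endothelial covariates 12 changed sign: in RA Plagl1 -0.25 and Ndn -0.25 from PN7 to PN10 and Ndn -0.17 from PN4 to PN10, and in hyperoxia Meg3 0.038 at PN4, H19 0.42 and Ndn 0.40 at PN7, and Meg3 -0.44 and Ndn 0.18 at PN10. Between effects they were Ndn 0.062 for PN7 against PN4, Ndn -0.22 for PN10 against PN7, and Meg3 -0.48 and Grb10 0.0068 for PN10 against PN4.

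Median-ratio scaling changed the sign of 5 values: Ndn -0.085 from PN4 to PN7 in RA, Peg3 -0.025 and Ndn -0.084 in hyperoxia PN4, and Grb10 0.092 and Ndn 0.030 between the effects at PN10 and PN4. Quantile normalization changed 6: Ndn -0.15 from PN4 to PN7 in RA, Peg3 -0.040 and Ndn -0.14 in hyperoxia PN4, and between effects Ndn 0.019 for PN7 against PN4, Ndn -0.022 for PN10 against PN7 and Grb10 0.0265 for PN10 against PN4. The title-number block changed 4: Plagl1 -0.13 from PN7 to PN10 in RA, Meg3 0.17 in hyperoxia PN4, Rian -0.0545 between the effects at PN7 and PN4, and Grb10 0.14 between those at PN10 and PN4.

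Leaving out 1 sample changed the sign of 46 values, over these ranges. In RA they were -0.049 to 0.49 for Peg3 and -0.0355 to 0.25 for Ndn from PN4 to PN7, -0.17 to 0.21 for Plagl1 and -0.23 to 0.33 for Ndn from PN7 to PN10, and -0.52 to 0.090 for Peg3 and -0.11 to 0.45 for Ndn from PN4 to PN10. In hyperoxia PN4 they were -0.50 to 0.25 for Meg3, -0.25 to 0.28 for Peg3, -0.56 to 0.27 for Plagl1 and -0.21 to 0.17 for Ndn, in hyperoxia PN7 -0.31 to 0.24 for Ndn, and in hyperoxia PN10 -0.46 to 0.36 for Dlk1 and -0.35 to 0.22 for Ndn. Between effects they were -0.083 to 0.23 for Rian and -0.34 to 0.21 for Ndn for PN7 against PN4, -0.29 to 0.34 for Ndn for PN10 against PN7, and -0.34 to 0.28 for Grb10 and -0.38 to 0.18 for Ndn for PN10 against PN4.

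Leaving out each sample gave 0 to 1 higher and 0 to 2 lower from PN4 to PN7 in RA, 2 to 5 lower from PN7 to PN10, and 0 to 1 higher from PN4 to PN10. In hyperoxia it gave 0 to 2 lower at PN4, 2 to 3 lower at PN7, and 2 to 3 higher and 0 to 1 lower at PN10. Differences between effects gave 0 to 2 lower for PN7 against PN4, 1 to 4 higher for PN10 against PN7 and 3 to 4 higher for PN10 against PN4. All-gene calls moved over these fits too, and no share of all genes stands beside these ranges. The ranges are therefore not read as particular to the members. Leaving out replicate 1 of hyperoxia PN4 or of hyperoxia PN10 changed 1 member call, that of H19 between PN10 and PN4 (2.33 and 2.16, both lost), and each of the other 16 samples changed a call of at least 1 member.

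With the replicate block, H19 was called at -1.54 from PN7 to PN10 in RA and at 1.52 in hyperoxia at PN10, and Grb10 at -1.16 between the effects at PN7 and PN4 and at 1.15 between those at PN10 and PN7. Profiles of the same number in RA and hyperoxia had an r of 0.026, 0.025 and -0.057 for PN4 pairs, of -0.081, 0.213 and -0.112 for PN7 pairs and of 0.129, 0.084 and 0.243 for PN10 pairs, and the labels do not say that they belong together. Of all pairs of an age, the highest r was 0.314, for replicate 1 of RA PN7 with replicate 3 of hyperoxia PN7, which carry neighboring title numbers. With the title-number block the call of Cdkn1c from PN7 to PN10 in RA was lost (-0.9875) and Grb10 was called (1.042). For that step the block rests on the run that holds replicate 1 of RA PN7 and replicate 2 of RA PN10. The title-number block could not be fitted for the comparisons of RA PN4 with later ages.

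All-gene calls moved over the alternatives and leave-outs too. In RA they ranged from 28 (pan-fibroblast centring) to 1075 (without RA PN4 replicate 1) higher from PN4 to PN7, and from 105 (mesothelial covariate) to 8379 (pan-fibroblast centring) lower from PN4 to PN10. In hyperoxia at PN10 they ranged from 9 (mesothelial covariate) to 3229 (pan-fibroblast centring) higher. Read totals were not used, so counting error has no interval here.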
